A study of Mus musculus with 6 samples.

Results

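The cytotoxic granule and NK effector genes, 10 genes of killer lymphocytes, were followed in dendritic cells sorted from ovarian tumours of mice with and without XBP1 in CD11c-positive cells. They were the granule genes Nkg7, Prf1, Gzma, Gzmb and Gzmk, the effector genes Fasl and Ifng, the receptor gene Ncr1 of natural killer (NK) cells, and the transcription factor genes Eomes and Tbx21. They were chosen by symbol with earlier results of these data known, and all 10 were among the 23225 genes of the count table. RNA-seq was done on tumour-associated dendritic cells of C57BL/6 mice carrying tumours of ID8, a mouse ovarian cancer cell line, at day 23. The control group was wild type (WT, 3 libraries), and the other group carried a conditional deletion of XBP1 in CD11c-positive cells (XBP1-KO, 3 libraries). XBP1 is a transcription factor of the ER stress response. The labels give no Cre line and no sort gate, and they do not say whether each sample was a separate animal, so that p-values speak only of how much these samples vary, which may be technical. CD11c, the product of Itgax, is known from dendritic cells and is also found on NK cells and some activated T cells. The columns carry no replicate number, and the libraries of each genotype are called a, b and c, a letter that pairs nothing.

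Cytotoxic lymphocytes, which are NK cells and CD8 T cells, kill through granules that they release onto a target cell. Perforin, the product of Prf1, opens the membrane of the target, and granzymes, a family of serine proteases, enter and cleave proteins that trigger cell death. Fas ligand, the product of Fasl, kills by a separate route through the death receptor Fas, and interferon gamma, the product of Ifng, activates macrophages and antigen presentation. NKp46, the product of Ncr1, is a receptor used to identify NK cells, and the related T-box factors EOMES and T-bet, the product of Tbx21, control the identity of NK cells and cytotoxic T cells.

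Promoter sequences are shown because the members include a pair of T-box factors and because several members lay higher together. All 10 members matched the RefSeq promoter table of build GRCm38.p6, which is not the build mm9 of the counts and served for sequence only. Of each gene the 250 bases before the transcript start were searched on both strands for AGGTGTGA, the T-box site, AGGTGT, a shorter form that lies within it, TGTGGT, the Runx site, TGACTCA, the AP-1 site, and TTCNNNGAA, the STAT site. TGTGGT was present in 5 of 10 members, against 14% of 32851 promoters, and these 5 were chosen to be shown after the search. They are also the 5 members with the highest mean level in both genotypes together, and a link between motif and level was not tested. AGGTGT was present in 4 members, against 11.8% of promoters, and AGGTGTGA in Nkg7 alone, 14 bases before the start, against 1.12%. TTCNNNGAA was present in Nkg7 and Ifng, against 7.02% of promoters, and TGACTCA in Gzmb, against 4.46%. The windows of Fasl, Eomes and Tbx21 held none of the 5 motifs. A match is a description of letters and shows no binding. The sequences below are chr7:43436888-43437072 on the plus strand for Nkg7, chr10:61297586-61297832 on the plus strand for Prf1, chr13:113100982-113101231 on the minus strand for Gzma, chr14:56262335-56262584 on the minus strand for Gzmb and chr7:4337465-4337714 on the plus strand for Ncr1, with the start furthest upstream taken for Ncr1. They run 5′ to 3′ with AGGTGT and TGTGGT, or their reverse complements, in capitals. The last 65 bases of the Nkg7 window, which hold its AGGTGTGA, and the last 3 of Prf1 are annotated as transcribed in GENCODE and are not printed.
Nkg7: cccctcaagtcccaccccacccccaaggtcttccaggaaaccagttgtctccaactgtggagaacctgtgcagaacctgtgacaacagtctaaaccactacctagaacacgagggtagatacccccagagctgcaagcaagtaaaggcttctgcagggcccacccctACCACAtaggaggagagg
Prf1: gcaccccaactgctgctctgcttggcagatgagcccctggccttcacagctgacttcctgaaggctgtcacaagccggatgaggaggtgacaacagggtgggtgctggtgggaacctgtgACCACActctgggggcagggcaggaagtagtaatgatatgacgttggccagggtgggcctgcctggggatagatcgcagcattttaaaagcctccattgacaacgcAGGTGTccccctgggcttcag
Gzma: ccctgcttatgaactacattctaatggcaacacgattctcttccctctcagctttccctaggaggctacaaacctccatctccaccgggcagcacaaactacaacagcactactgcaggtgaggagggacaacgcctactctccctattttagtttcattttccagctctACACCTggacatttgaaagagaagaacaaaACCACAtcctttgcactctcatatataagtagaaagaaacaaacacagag
Gzmb: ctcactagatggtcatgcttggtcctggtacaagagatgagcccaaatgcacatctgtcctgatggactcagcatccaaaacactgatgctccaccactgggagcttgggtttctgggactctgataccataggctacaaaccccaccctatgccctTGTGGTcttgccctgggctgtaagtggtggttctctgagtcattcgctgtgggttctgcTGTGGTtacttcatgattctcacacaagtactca
Ncr1: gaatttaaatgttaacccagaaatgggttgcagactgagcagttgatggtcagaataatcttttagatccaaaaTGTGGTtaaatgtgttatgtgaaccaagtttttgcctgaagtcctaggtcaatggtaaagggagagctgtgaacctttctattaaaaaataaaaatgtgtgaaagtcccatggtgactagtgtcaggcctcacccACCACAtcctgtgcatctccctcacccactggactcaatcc

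Libraries held between 26946349 and 32709100 counts. On the second principal component of log2 CPM, counts scaled to library size, which took 22.2% of the variance, the b library of each genotype scored high, 38.3 in WT and 30.1 in XBP1-KO, against -45 to -0.993 in the remaining 4, so that results are given with and without these libraries. Dendritic cell genes were present, with Itgax between 94.3 and 161 CPM and Flt3, a receptor of conventional dendritic cells, between 15.9 and 50.4 CPM. Itgax had 103 ± 7.95 CPM for WT against 146 ± 14.2 CPM for XBP1-KO (SD, n = 3), without overlap. It did not pass edgeR's quasi-likelihood F test (adjusted p 0.106). Macrophage genes were present too, with C1qb between 2250 and 3663 CPM. Counts of Xbp1, the targeted gene, gave 64.2 ± 14.3 CPM for WT against 34.6 ± 5.07 CPM for XBP1-KO (SD, n = 3). By edgeR's quasi-likelihood F test the adjusted p was 0.0545, and with 1 library left out it passed only without WT b (0.0466). Gene-level counts cannot show whether an Xbp1 transcript lacks the deleted exons.

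The comparison of the genotypes asks how RNA in the sorted cells differs once XBP1 is deleted. All 10 members lay higher in XBP1-KO, 2 of them rose and none fell. The 2 that rose were Nkg7, by 3.41-fold, and Ncr1, by 2.89-fold. Over all 15958 genes tested 0.157% rose, 0.288% fell and 56.1% lay higher. All 10 members passed the filter on low counts. Gzmk, at 8, 22 and 9 counts in WT, passed it only with its higher XBP1-KO libraries, and the counts here include it. Their median log2 fold change was 1.47, where the median of all tested genes was 0.057, and 8 of them were at least 2-fold higher, as were 4.45% of all tested genes. Every XBP1-KO library lay above every WT library for 5 members, Nkg7, Prf1, Fasl, Ncr1 and Eomes, where 8.8% of all tested genes did so. An unadjusted p under 0.05 was reached by the 8 members other than Ifng and Tbx21, and by 4.59% of all tested genes in this direction. Since the members were chosen with earlier results of these data known, these shares describe the set and do not test it. In bulk RNA more cells of a type and more RNA per cell cannot be told apart. T cell markers lay higher in the same libraries. Their 14 genes summed to between 53.2 and 62.8 CPM in WT and between 98.4 and 153 CPM in XBP1-KO, none of them at 0 throughout, and their part in the members' values was not tested.

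**Figure D1:**
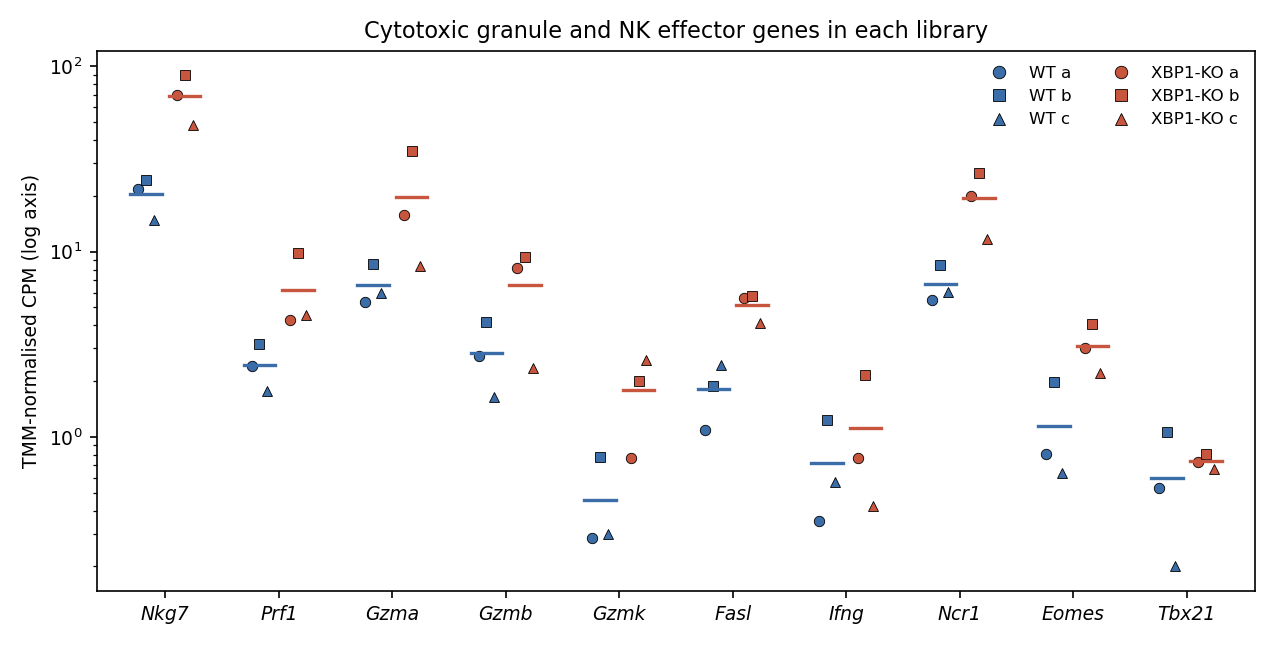
TMM-normalised CPM of the 10 members in each of the 6 libraries, on a log axis, with WT in blue, XBP1-KO in red, the library letter as the symbol and the group mean as a line. Nkg7, Prf1, Fasl, Ncr1 and Eomes have every XBP1-KO point above every WT point, and the points of the other 5 genes overlap.

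Among the granule genes, Nkg7 had the highest level and was the member with the smallest p. NKG7 is a membrane protein of cytotoxic granules that takes part in their release. It had 615, 691 and 446 counts in WT a, b and c and 1925, 2652 and 1593 in XBP1-KO a, b and c. As normalised levels these were 21.7, 24.5 and 14.9 CPM in WT and 70.5, 89.5 and 48.3 CPM in XBP1-KO. The lowest XBP1-KO library, c, was thus well above the highest WT library, b. Nkg7 rose by 1.77 on the log2 scale (SE 0.25, 95% interval 1.23 to 2.31) and passed edgeR's quasi-likelihood test (adjusted p 0.0201). This call ended without WT a (adjusted p 0.0569), WT c (0.0958) or XBP1-KO a (0.0654) and was kept without WT b (0.0463), XBP1-KO b (0.0091) or XBP1-KO c (0.0034). Without WT b and XBP1-KO b together the adjusted p was 0.034. With 1 library left out the log2 fold change of Nkg7 ran from 1.53, without XBP1-KO b, to 1.95, without XBP1-KO c.

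Prf1, the pore-forming protein of the granule, had 68, 90 and 53 counts in WT and 117, 293 and 149 in XBP1-KO. Its levels were 2.4, 3.19 and 1.77 CPM in WT and 4.28, 9.88 and 4.52 CPM in XBP1-KO. The genotypes did not overlap, and library b stood well above a and c among the XBP1-KO libraries. Prf1 had a log2 fold change of 1.34 (SE 0.37, 95% interval 0.53 to 2.15), with an adjusted p of 0.132, which did not pass. Without XBP1-KO b the log2 fold change of Prf1 was 0.83, and with each library left out its adjusted p was 0.167 to 0.455. It passed with DESeq2 (0.0201) and with the likelihood ratio test (0.0475).

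Of the granzymes, none passed the test and all 3 overlapped between the genotypes. Gzma, a protease with trypsin-like specificity, was the most abundant of them, with 152, 241 and 179 counts in WT and 428, 1029 and 277 in XBP1-KO. These gave 5.37, 8.53 and 5.98 CPM in WT and 15.7, 34.7 and 8.4 CPM in XBP1-KO. Library XBP1-KO c thus lay just under WT b, while XBP1-KO b held 4.13 times the level of XBP1-KO c. The log2 fold change of Gzma was 1.56 (SE 0.51, 95% interval 0.36 to 2.76), with an adjusted p of 0.264. Leaving out XBP1-KO b gave 0.85 and leaving out XBP1-KO c 1.91, with adjusted p-values of 0.218 and 0.0861.

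Gzmb cleaves after aspartate and activates caspases. It had 77, 118 and 49 counts in WT and 222, 277 and 78 in XBP1-KO, or 2.72, 4.18 and 1.64 CPM against 8.12, 9.34 and 2.37 CPM. XBP1-KO c, at 2.37 CPM, was lower than WT a and b, and the other 2 XBP1-KO libraries were higher than every WT library. Gzmb had a log2 fold change of 1.21 (SE 0.51, 95% interval 0.081 to 2.35), with an adjusted p of 0.352. Mast cells also express Gzmb. The 3 mast cell proteases Cma1, Cpa3 and Tpsb2 rose, and each was highest in XBP1-KO c, the XBP1-KO library with the lowest Gzmb. In XBP1-KO a, b and c Cma1 had 32.6, 27.3 and 43.5 CPM, Cpa3 19.1, 17.3 and 30.6 CPM and Tpsb2 22.9, 25.5 and 37.3 CPM. The part of mast cells in the Gzmb values was not tested.

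Gzmk, a granzyme known from memory T cells and some NK cells, was near the limit of counting, with 8, 22 and 9 counts in WT and 21, 59 and 86 in XBP1-KO. Its levels were 0.283, 0.779 and 0.301 CPM in WT and 0.769, 1.99 and 2.61 CPM in XBP1-KO, so that XBP1-KO a and WT b were nearly level. Gzmk was the only member with its highest value in XBP1-KO c, the library in which Nkg7, Gzma and Gzmb had their lowest XBP1-KO values. It passed the filter on low counts only with its higher XBP1-KO libraries. Gzmk had the largest log2 fold change among the members, 1.98, with a wide interval (SE 0.6, 95% interval 0.68 to 3.28), and did not pass (adjusted p 0.17). Leaving out each library in turn gave log2 fold changes from 1.58, without XBP1-KO c, to 2.58, without WT b.

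Neither of the secreted or surface effectors, Fasl and Ifng, passed the test. Fasl had 31, 53 and 73 counts in WT and 153, 170 and 135 in XBP1-KO, giving 1.09, 1.88 and 2.44 CPM against 5.6, 5.73 and 4.1 CPM. The genotypes did not overlap, and the XBP1-KO libraries lay close together, within 1.4-fold. Fasl had a log2 fold change of 1.51 (SE 0.35, 95% interval 0.76 to 2.25) with an adjusted p of 0.0785, just short of the threshold. Fasl was the member other than Nkg7 and Ncr1 with the smallest p, and it passed with DESeq2 (0.004), with the likelihood ratio test (0.0081) and with no filter on low counts (0.029). It did not pass with limma-voom (0.0945), upper quartile scaling (0.0862), library size alone (0.135), the deposited CPM (0.11 and 0.133) or any library left out (0.108 to 0.214).

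Ifng had 10, 35 and 17 counts in WT and 21, 64 and 14 in XBP1-KO. These were 0.353, 1.24 and 0.568 CPM in WT and 0.769, 2.16 and 0.425 CPM in XBP1-KO, with library b the highest of both genotypes. The genotypes overlapped throughout, and the log2 fold change of 0.63 (SE 0.68, 95% interval -0.84 to 2.11) did not pass (adjusted p 0.731). The interval holds no change as well as a change of the size seen for Nkg7. Without XBP1-KO b the log2 fold change was -0.29. A further limit is the annotation. Of the members, 8 share no stretch of 50 bases with another GENCODE gene, Eomes shares 0.386% of its stretches, and in Ifng it is more: 19.9% of the stretches of 50 bases of its transcripts also occur in the overlapping gene Gm49751, and how the authors' counting divided such reads is not given in the sources used here.

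Ncr1, the receptor NKp46, was the other member that rose. It had 156, 239 and 182 counts in WT and 543, 784 and 386 in XBP1-KO, giving 5.51, 8.46 and 6.08 CPM against 19.9, 26.4 and 11.7 CPM. The lowest XBP1-KO library, c, lay above the highest WT library, b. The log2 fold change was 1.53 (SE 0.29, 95% interval 0.9 to 2.17), close to the threshold of edgeR's quasi-likelihood test (adjusted p 0.0489). With 1 library left out Ncr1 passed only without XBP1-KO c (0.0173), while leaving out XBP1-KO a or b (0.162, 0.0547) or any of WT a, b and c (0.112, 0.0887, 0.26) ended the call. Without WT b and XBP1-KO b together the adjusted p was 0.08. With 1 library left out the log2 fold change of Ncr1 ran from 1.23, without XBP1-KO b, to 1.77, without XBP1-KO c.

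Neither of the T-box factors passed the test, and their fold changes were not tested against each other. Eomes had 23, 56 and 19 counts in WT and 82, 120 and 73 in XBP1-KO, or 0.812, 1.98 and 0.635 CPM against 3, 4.05 and 2.21 CPM. The genotypes did not overlap, though WT b at 1.98 CPM came close to XBP1-KO c. The log2 fold change was 1.43 (SE 0.46, 95% interval 0.43 to 2.43), with an adjusted p of 0.196. Without WT b the log2 fold change of Eomes was 2.06, and no library left out brought a pass (0.109 to 0.552). GENCODE places Gm33460 on the opposite strand over exons of Eomes, and since no strand setting is given their reads cannot be told apart.

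Tbx21, the gene of T-bet, had 15, 30 and 6 counts in WT and 20, 24 and 22 in XBP1-KO. Its levels were 0.53, 1.06 and 0.2 CPM in WT and 0.732, 0.81 and 0.668 CPM in XBP1-KO. WT b was the highest of all 6 libraries and WT c the lowest, and the XBP1-KO values lay between them within 1.21-fold. The log2 fold change was 0.3 (SE 0.65, 95% interval -1.09 to 1.7) with an adjusted p of 0.874, and without WT c it was -0.11. The ratio of Eomes to Tbx21 counts, taken after their values were seen, was 1.53, 1.87 and 3.17 in WT and 4.1, 5 and 3.32 in XBP1-KO. Every XBP1-KO ratio was above every WT ratio, with WT c close to XBP1-KO c and resting on 6 counts of Tbx21.

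**Figure D2:**
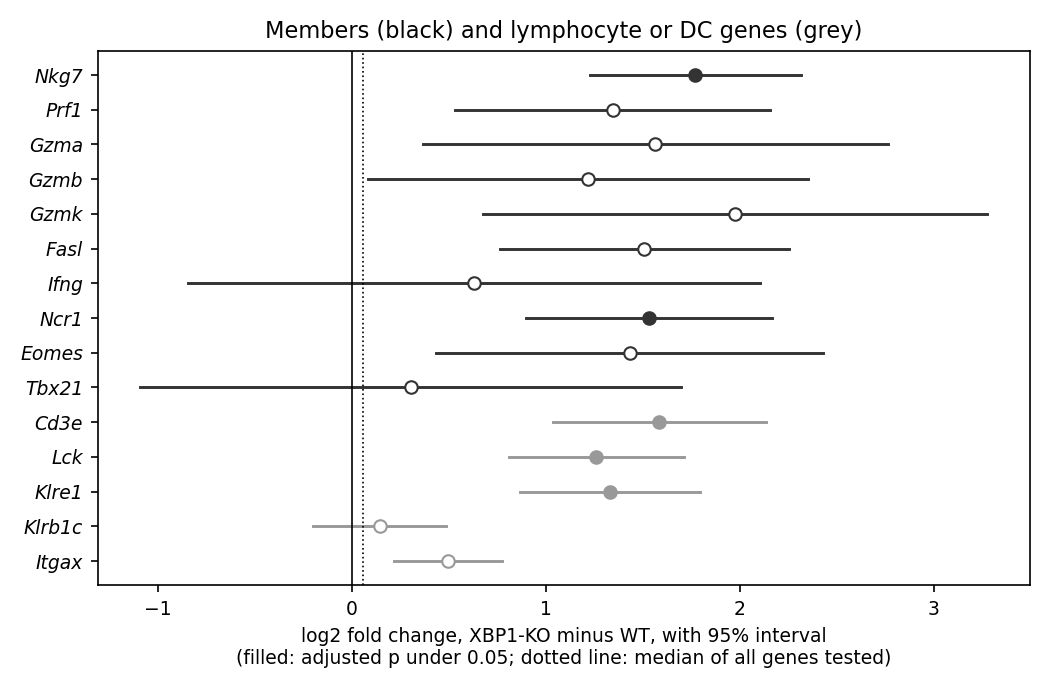
Log2 fold change of XBP1-KO minus WT with its 95% interval for the members in black and for 5 other genes in grey, filled where the adjusted p is under 0.05, with the median of all tested genes as a dotted line. Only the intervals of Ifng and Tbx21 among the members reach 0, and Cd3e, Lck and Klre1 have fold changes in the range of the members while Klrb1c has 0.14.

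Compared per kilobase of exon, levels in WT fell in the order Nkg7, Gzma, Ncr1, Gzmb, Prf1, Fasl, Ifng, Gzmk, Eomes and Tbx21. Nkg7 stood at 22.3 ± 5.39 CPM per kilobase, Gzma at 6.59 ± 1.67 and Ncr1 at 4.34 ± 1.02 (SD, n = 3). Nkg7 was thus set apart from all others, while Gzma and Ncr1 differed by less than the sum of their SDs. Gzmb at 1.98 ± 0.888 CPM per kilobase, Prf1 at 0.949 ± 0.274 and Fasl at 0.931 ± 0.348 also differed by less than the sum of their SDs. Ifng at 0.556 ± 0.357, Gzmk at 0.327 ± 0.203, Eomes at 0.275 ± 0.176 and Tbx21 at 0.24 ± 0.175 overlapped within their SDs. In XBP1-KO the highest means were those of Nkg7, Gzma, Ncr1 and Gzmb, with 75.9 ± 22.5, 19.5 ± 13.5, 12.6 ± 4.79 and 4.6 ± 2.6 CPM per kilobase. Of these, Gzma and Ncr1 again differed by less than the sum of their SDs. This measure sets group means side by side and does not compare 2 genes within the same library.

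Within each genotype, library b was the highest for most members. WT b was the highest WT library for 9 members, all except Fasl, and XBP1-KO b the highest XBP1-KO library for 9 members, all except Gzmk. Both held for 8 members, where both held for 18.9% of all tested genes. The lowest library was less uniform in WT, where it was a for 5 members and c for 5, while in XBP1-KO it was c for 8. Summed over the 10 members the level was 40.8, 55.7 and 34.5 CPM in WT a, b and c and 129, 185 and 85.4 CPM in XBP1-KO a, b and c, of which Nkg7 took between 43.2% and 56.6%. With WT b and XBP1-KO b fitted as a term of their own beside genotype, 6 members rose, against 0.583% of all genes tested. They were Nkg7 (adjusted p 0.0024), Ncr1 (0.0086), Gzma (0.028), Prf1 (0.0324), Fasl (0.0414) and Eomes (0.0479). Without these libraries, in the other 4, only Nkg7 passed (0.034) and all 10 members lay higher.

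**Figure D3:**
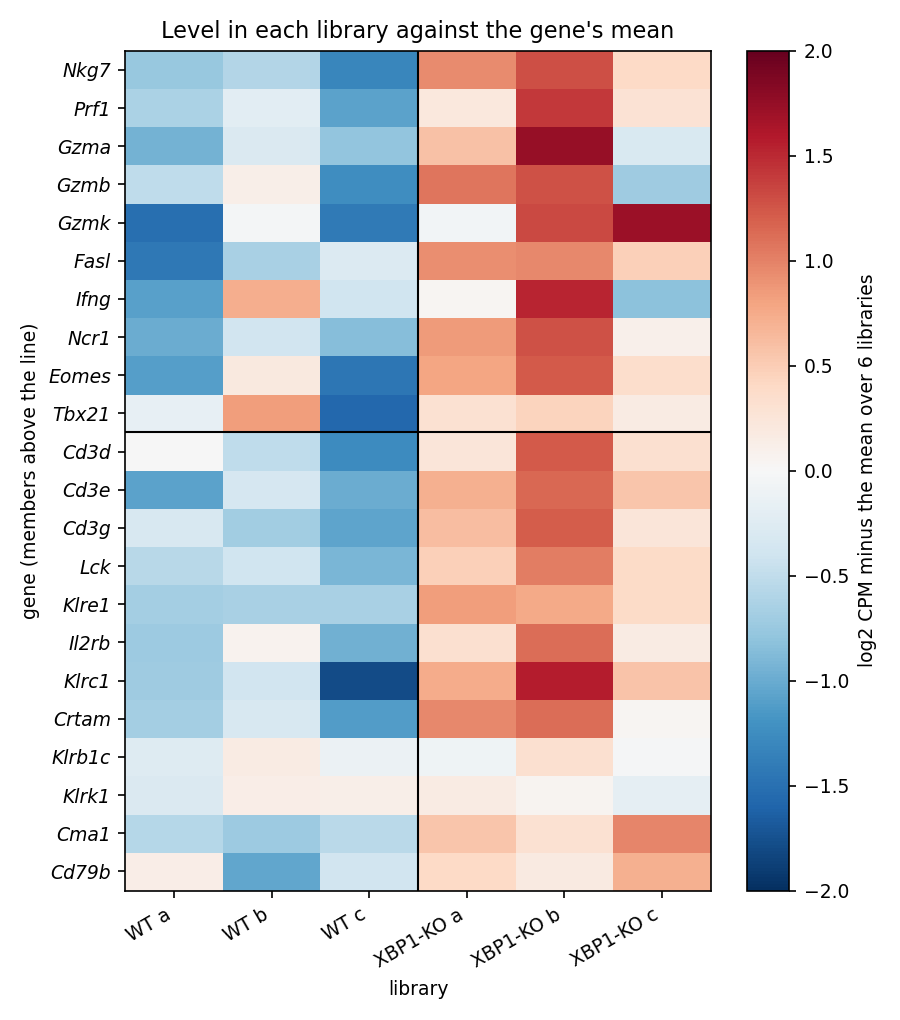
Log2 CPM of each gene in each of the 6 libraries minus the gene's mean over them, in red where higher and in blue where lower, with the 10 members above the line and 12 other listed genes below it. XBP1-KO b is the highest XBP1-KO library for 9 members, Gzmk is highest in XBP1-KO c, Tbx21 in WT b, and Klrb1c and Klrk1 stay near 0 in every library.

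To see how the members stood beside T cell genes within each library, their level was divided by the summed level of Cd3d, Cd3e and Cd3g, subunits of the T cell receptor complex. This sum was 16.4, 16.1 and 10.7 CPM in WT and 33.2, 51.5 and 29.8 CPM in XBP1-KO. Nkg7 over this sum was 1.33, 1.52 and 1.4 in WT and 2.12, 1.74 and 1.62 in XBP1-KO, so that every XBP1-KO ratio was above every WT ratio. The difference was 0.36 on the log2 scale, with an exact two-sided permutation p of 0.1, the smallest that 3 against 3 allows, and an adjusted p of 0.25 over 20 ratios. Ncr1 over the sum was 0.337, 0.525 and 0.571 in WT and 0.599, 0.514 and 0.393 in XBP1-KO, which overlapped. Gzma was 0.328, 0.53 and 0.561 in WT and 0.472, 0.674 and 0.282 in XBP1-KO, so that the XBP1-KO ratios held both the highest and the lowest value. Prf1 was 0.147, 0.198 and 0.166 in WT and 0.129, 0.192 and 0.152 in XBP1-KO, where it overlapped too. Of the 10 members 5 had a higher and 5 a lower mean log2 ratio to the T cell receptor genes in XBP1-KO. The ratio of Tbx21 was lower in each XBP1-KO library with 0.1 CPM added to both levels, while with nothing added WT c, at 0.0188, lay below XBP1-KO a and c, at 0.022 and 0.0224.

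A sum of NK receptor genes was the other divisor. It held Klrb1c, the gene of NK1.1, Klre1, an NK lectin receptor, and Il2rb, a receptor chain for IL-2 and IL-15. Klrb1c took between 69.6% and 85.5% of this sum and did not pass the test, with 54 ± 8.16 CPM for WT against 59.6 ± 9.41 CPM for XBP1-KO. Over the whole sum 6 members, Nkg7, Prf1, Gzma, Fasl, Ncr1 and Eomes, had every XBP1-KO ratio above every WT ratio, each with an exact permutation p of 0.1 and an adjusted p of 0.25. With Klrb1c left out, a choice made after its values were seen, this held for Nkg7 alone, at 2.36, 1.98 and 1.7 in WT and 3.03, 3.12 and 2.62 in XBP1-KO. Ncr1 over Klre1 and Il2rb was 0.598, 0.685 and 0.692 in WT and 0.855, 0.921 and 0.635 in XBP1-KO, with XBP1-KO c inside the WT range. The count of separated members therefore rests on whether Klrb1c is in the divisor.

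**Figure D4:**
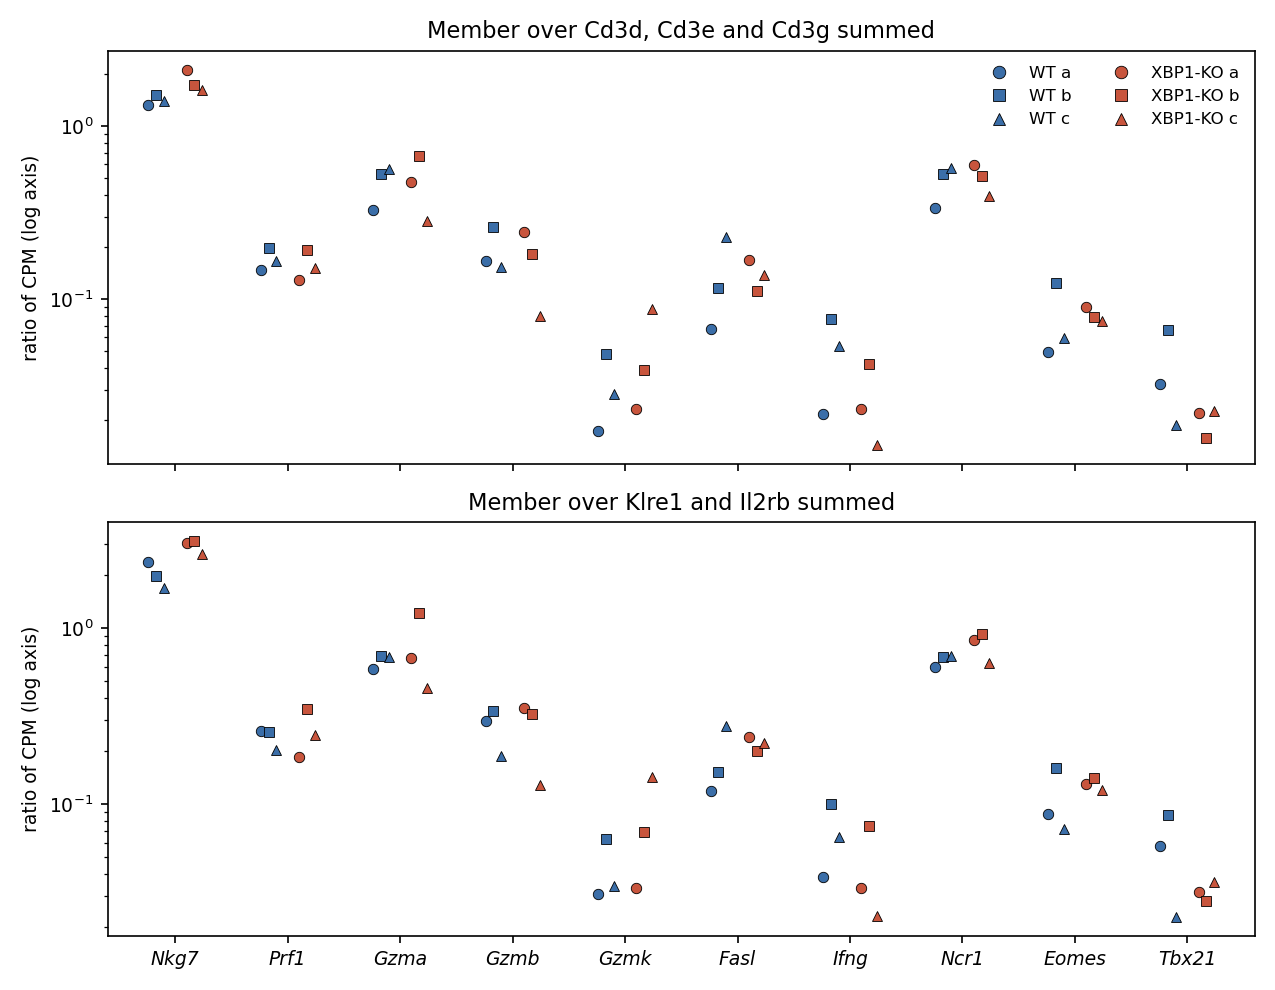
Ratio of each member's CPM to the summed CPM of Cd3d, Cd3e and Cd3g (top) and of Klre1 and Il2rb (bottom) in each of the 6 libraries, on log axes, with WT in blue and XBP1-KO in red. Nkg7 is separated between the genotypes in both panels, with ratios of 1.33 to 1.52 against 1.62 to 2.12 in the top panel, and the points of Ncr1, Gzma and Prf1 overlap in both.

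The other genes of the killing pathway were read from lists. These hold genes far more abundant than any member, such as Ctsc at 2358 and Coro1a at 916 CPM on average, against 44.9 CPM for Nkg7. The cell types behind such levels were not tested, so that the medians do not describe killer lymphocytes alone. Of 6 tested genes for other granule contents, 3 lay higher, none passed, and the median log2 fold change was 0.065. The smallest p was that of Ctsw, a protease of cytotoxic lymphocytes, with 7.24 ± 2.2 CPM for WT against 17.6 ± 9.09 CPM for XBP1-KO and an adjusted p of 0.179. Gzme, Gzmf and Gzmn were below the filter on low counts, with between 0 and 17 counts in any library. Of 10 genes of granule release, 5 lay higher and none passed, with a median of 0.034. Among them Sytl2, which tethers granules to the membrane, had 1.53 ± 0.716 CPM for WT against 3.07 ± 0.668 CPM for XBP1-KO and an adjusted p of 0.312. Of 9 genes of the death receptor pathway, 6 lay higher, where 56.1% of all tested genes did so, none passed, and the median was 0.22. None of the higher ones reached an unadjusted p under 0.05. Of those that lay lower 2 did, both without overlap, and the share of all tested genes for this direction was not computed.

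Receptors and regulators of NK cells were read in the same way. Their lists too hold abundant genes, such as Tyrobp at 1391, Id2 at 1389 and Il2rg at 749 CPM on average. Of 13 activating receptors and adaptors, 10 lay higher, 3 lay lower, none passed, and the median was 0.14. An unadjusted p under 0.05 was reached by 5, all of them higher, and 3 lay higher without overlap. Over all tested genes these shares were 4.59% in this direction and 8.8%. The smallest p was that of Crtam, a receptor of activated NK and CD8 T cells, with 3.79 ± 1.02 CPM for WT against 10.3 ± 3.66 CPM for XBP1-KO, without overlap and with an adjusted p of 0.0696. Of 12 transcription factors of NK cells and innate lymphoid cells, 8 lay higher, none passed, and the median was 0.42. Of these 12, 5 reached an unadjusted p under 0.05, all of them higher, against 4.59% of all tested genes. Without overlap 4 lay higher, against 8.8% of all tested genes, and 1 lay lower. Ikzf3, the lymphoid factor Aiolos, had 7.92 ± 2.16 CPM for WT against 18 ± 4.43 CPM for XBP1-KO (adjusted p 0.0572). Of 9 cytokine receptors, 4 lay higher and none passed, with a median of -0.042. Il2rb had the smallest p, with 4.87 ± 1.93 CPM in WT, 10.2 ± 3.89 CPM in XBP1-KO (adjusted p 0.179). Over all tested genes the percentage called in either direction was 0.445%.

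Upstream and downstream of Ifng, 1 gene changed. Of 6 tested cytokines that drive Ifng, 3 lay higher, and Il12b, whose product is a chain of IL-12, fell from 26.5 ± 7.85 to 8.26 ± 2.78 CPM (adjusted p 0.044). With 1 library left out the call of Il12b was kept in the absence of WT a (0.0305) or XBP1-KO b (0.0389). It ended in the absence of WT b or c (0.101, 0.18) or of XBP1-KO a or c (0.0631, 0.0927). Of 14 genes of the Ifng receptor and its targets, 11 lay lower, none passed, and the median was -0.089. The smallest p was that of Ciita, which switches on MHC class II genes, with 189 ± 26 CPM for WT against 136 ± 6.33 CPM for XBP1-KO and an adjusted p of 0.131.

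Markers of other cell types were measured beside the members. Of 14 T cell markers 13 lay higher and 2 rose, with a median of 0.85, and the gene that lay lower was Cd4, the helper T cell coreceptor, with an adjusted p of 0.628. Cd3e rose from 5.4 ± 1.61 to 16.2 ± 3.56 CPM (adjusted p 0.0227), and Lck, a kinase of T and NK cells, from 14 ± 2.51 to 33.5 ± 8.41 CPM (0.0248). Cd8b1, a chain of the CD8 coreceptor, had 10.1 ± 0.55 CPM for WT against 15.5 ± 3.44 CPM for XBP1-KO and did not pass (0.217). Of 6 NK cell markers 6 lay higher and Klre1 rose, from 5.25 ± 0.0803 to 13.2 ± 2.08 CPM (0.0227), and the 6 summed to between 54.8 and 70.5 CPM in WT and between 69.4 and 91.5 CPM in XBP1-KO, which overlapped. Klrb1c is most of this sum, and the other 5 summed to 7.59, 7.43 and 8.28 CPM in WT and 18.4, 21.1 and 14.2 CPM in XBP1-KO, without overlap, a sum taken after the values were seen. With 1 library left out, Cd3e lost its call without WT a (0.0569), WT c (0.17) or XBP1-KO a (0.0606). Lck lost it without WT a (0.0569), WT b (0.0662), WT c (0.18) or XBP1-KO a (0.0606), and Klre1 without WT a (0.0569), WT b (0.0723), WT c (0.146) or XBP1-KO a (0.0831).

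Markers of mast cells, B cells and neutrophils also lay higher in XBP1-KO. Of 6 mast cell and basophil markers 6 lay higher and 3 rose. Cma1 rose from 14.5 ± 1.05 to 34.4 ± 8.29 CPM (adjusted p 0.0192), Tpsb2 from 13.4 ± 1.92 to 28.5 ± 7.65 CPM (0.0459) and Cpa3 from 9.68 ± 0.39 to 22.3 ± 7.21 CPM (0.044). With 1 library left out, Cma1 kept its call in the absence of WT a (0.0472) or XBP1-KO b (0.006), and its adjusted p otherwise ran from 0.0533, in the absence of XBP1-KO a, to 0.116, in that of WT c. Cpa3 and Tpsb2 kept theirs only without XBP1-KO b (0.021 and 0.0369), and otherwise reached up to 0.222 and 0.255 without WT c. Of 5 B cell markers 5 lay higher and none passed, with Cd79b of the B cell receptor at 72.9 ± 28.3 CPM for WT against 127 ± 23.7 CPM for XBP1-KO (0.264) and Ms4a1, the gene of CD20, at 67.6 ± 32.4 and 115 ± 17.7 CPM (0.422). Of 5 neutrophil markers 5 lay higher and none passed, with the calcium-binding genes S100a8 at 24.7 ± 22.3 CPM for WT against 88.8 ± 24.7 CPM for XBP1-KO (0.433) and S100a9 at 17.3 ± 14.5 and 54.8 ± 15 CPM (0.454). The part of any of these cells in the members' values was not tested.

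No marker of dendritic cells, macrophages, type 1 innate lymphoid cells or tumour cells passed the test. Of 12 conventional dendritic cell markers 3 lay higher, of 8 plasmacytoid dendritic cell markers 3, of 8 macrophage markers 4, of 6 markers of type 1 innate lymphoid cells 2 and of 6 markers of ID8 and mesothelial cells 4. Adjusted p-values of the 2 most abundant genes of each list were 0.625 for Cd74 and 0.961 for H2-Ab1, both of MHC class II, 0.938 for Tcf4 and 0.219 for Bst2, and 0.789 for Lyz2 and 0.707 for C1qb. They were 0.987 for Tmem176a and 0.48 for Cd200r1 of the innate lymphoid list and 0.773 for Krt19 and 0.761 for Krt18 of the tumour list. In each of these lists the summed level overlapped between the genotypes. Cox6a2 of the plasmacytoid list, named after its values were seen, had 3.06 ± 1.8 and 16.7 ± 8.7 CPM, without overlap and with an adjusted p of 0.0877.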

How the data were processed

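RNA-seq of 3 WT and 3 XBP1-KO samples was used. The main deposited table gives raw, whole-number counts of 23225 genes by symbol. RSEM, edgeR and build mm9 are named in the submitters' processing notes. The sources used here give no strand setting, aligner or annotation. A second deposited table holds CPM for 13946 genes, each equal to the count over the library total within 5.09e-11. It served as an alternative.

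The test of these deposited counts used edgeR 4.0.16 (R 4.3.3) with filterByExpr (15958 genes), TMM scaling, glmQLFit with robust estimation and a two-sided quasi-likelihood F test of genotype, with Benjamini-Hochberg adjustment over all genes tested and a threshold of 0.05. The SE is the absolute log2 fold change over the square root of F, and CPM are TMM-normalised. The test was checked on simulated data. Ratios, with 0.1 CPM added, were tested by exact permutation. Of 188 list memberships 174 were found in the count table, under the symbol or an unambiguous RefSeq synonym, and 165 were tested. Klrd1, planned for the NK sum, was not analysed here. Exon lengths come from GENCODE M21, of another build than the counts.

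Named were all members, of each pathway list up to 3 called genes or else that with the smallest p, of each marker list the 2 most abundant and up to 2 called genes, and Xbp1. The gene so chosen from the death receptor list is not reported here. Other genes were named after their values were seen. The members and lists were chosen with earlier results of these data known. Alternatives were DESeq2 1.42.0, limma 3.58.1 (voom, and deposited CPM with pseudocounts 1 and 0.1), the likelihood ratio test, other scalings and filters, and each library left out.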

Additional observations from a re-analysis of the deposited data

How the results depend on the processing

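Under 19 alternatives Nkg7 passed in 16 and Ncr1 in 7. Of the 8 members not called in the report, Fasl passed in 4, Prf1 in 3, Gzma and Eomes in 1 each, and 2 changed sign, namely Ifng without XBP1-KO b and Tbx21 without WT c. With 1 library left out their log2 fold changes ran from -0.29 to 1.23 and from -0.11 to 0.98. DESeq2 gave no adjusted p for Gzmk, Ifng and Tbx21, and Tbx21 was not tested in the deposited CPM or with a CPM above 1 in 2 libraries. The number of members that rose, 2 in the report, was 4 with DESeq2 and with the likelihood ratio test, which called 473 and 255 of all genes where the report has 71. It was 1 with limma-voom (47 of all genes), upper quartile scaling (50), library size alone (25), no robust estimation (45) and the deposited CPM with a pseudocount of 1 (25) or 0.1 (13). With no filter it was 3, of 252 called. With the b libraries fitted as a term it was 6 (426 called), and with both of them left out 1 (70 called), alternatives chosen after seeing the data. With 1 library left out it was 0 to 2, while 5 to 154 of all genes were called, 5 without WT c and 154 without XBP1-KO b. The cause was not tested. Library size alone put the median of all genes at 0.136 in place of 0.057 and the members' median from 1.47 to 1.53, with all 10 members higher. The count of members separated in their ratio to the T cell receptor genes, 1, went from 1 to 2 with 1 library left out, and that for the NK sum, 6, ran from 6 to 7 and was 1 without Klrb1c. No paired analysis was possible because the columns carry no replicate number. Tbx21, Ifng and Gzmk rest on 6 to 86 counts per library, where counting error adds to the spread.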

Other observations

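The share of Gzmk among the granzymes was highest in XBP1-KO c. Of the summed level of Gzma, Gzmb and Gzmk, Gzma took between 62.8% and 75.5% in all 6 libraries. Gzmk took between 3.13% and 5.77% in 5 libraries and 19.5% in XBP1-KO c, where Gzmb took 17.7%, its lowest share. Gzmb took 33.1% in XBP1-KO a, its highest. XBP1-KO c was also the library with the highest levels of the mast cell gene Cma1, at 43.5 CPM, and of the B cell gene Cd79b, at 153 CPM.

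Among 9706 genes with a mean of at least 5 CPM outside the members, the profile over the 6 libraries was compared with the mean log2 profile of the members. The closest were Gimap8, a GTPase of lymphocytes (Pearson r = 0.995), Il2rb (0.991), Cyp2j5 (0.991), Skap1, an adaptor of T cell signalling (0.988), and Prtn3, a protease of neutrophil granules (0.986). Those closest to Nkg7 alone were Hnmt, a histamine methyltransferase (0.993), Mrpl52, a mitochondrial ribosomal protein (0.991), and 1110007C09Rik (0.99). Coefficients above 0.9 were reached by 1.71% of these genes for the mean and by 1.17% for Nkg7. The 6 points share the genotype difference, so that the coefficients describe likeness and are given without a test.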
